A study of Mus musculus with 24 samples.

Results

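The 8 genes described here encode 2 cell-surface receptors for insulin and its relatives (Insr and Igf1r), the adaptor proteins that carry the signal inward (Irs1 and Irs2), the FOXO transcription factors that the pathway restrains (Foxo1, Foxo3 and Foxo4) and an inhibitor of PI3-kinase (Pik3ip1). They were taken by gene symbol from the 55487 genes of the deposited count table, and all 8 are reported whatever their values. All 8 passed the filter on low counts, as did 15401 genes in all. The 8 genes were chosen with earlier results of these data known, so comparisons of them with all genes are descriptions. They were measured by messenger RNA sequencing in mouse embryonic fibroblasts (MEFs), either wild type (WT) or lacking the transcription factors TFEB and TFE3 (*tfeb tfe3* double knockout, DKO). Cells of each genotype received the vehicle DMSO, torin1, an ATP-competitive inhibitor of the kinase MTOR, or MK-8722, an activator of the kinase AMPK. With 4 libraries in each of the 6 groups there were 24 libraries. The questions were whether inhibition of MTOR raises the mRNA of the receptors and adaptors, and whether any rise needs TFEB and TFE3.

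In this pathway a ligand-bound receptor phosphorylates IRS adaptors, which recruit PI3-kinase and so switch on the kinase AKT. AKT phosphorylates FOXO factors and holds them in the cytoplasm, and it also feeds MTOR complex 1, whose substrate S6 kinase acts back on IRS proteins to dampen the signal. When AKT activity falls, FOXO factors enter the nucleus, where Insr and Irs2 are among the genes they are known to activate. TFEB and TFE3 are kept in the cytoplasm by MTOR complex 1 in fed cells and bind E-box DNA when released. Protein, phosphorylation and nuclear entry were not measured in these libraries, only mRNA.

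WT libraries came from cells at passage 7, 8, 9 and 11, and DKO libraries from cells at passage 8, 9, 10 and 11, with 1 library of each passage in every group. The sources used here name no more than 1 line of cells per genotype, so that loss of TFEB and TFE3 and any other difference between the lines cannot be told apart. The labels name no separate animals, and p-values measure the spread between libraries of different passages. The labels give no dose or duration for either drug. Library totals ran from 24668921 to 33332562 counts, and RNA integrity numbers from 9.7 to 9.9 apart from 7.9 in DKO MK-8722 replicate 3. Of 10 fibroblast markers 9 reached 1 CPM and Lum did not. Levels of 1 gene between libraries are given in CPM, counts scaled to a common library total, and the fibroblast markers summed to 6165 to 10078 CPM. Of the markers of other cell types, 1 of 6 immune (Cd68), 1 of 5 endothelial (Kdr), 1 of 5 epithelial (Cdh1), 2 of 7 adipocyte (Pparg and Fabp4) and 1 of 5 myoblast genes (Des) reached 1 CPM in any library, and Ptprc, Pecam1, Epcam, Adipoq and Myod1 did not. The immune markers, nearly all Cd68, a lysosomal membrane protein of macrophages, had sums of 1.87 to 2.50 (DMSO), 4.34 to 6.59 (torin1) and 10.7 to 14.6 CPM (MK-8722) across WT libraries. Across DKO libraries the same sums were 4.40 to 6.496, 4.92 to 8.77 and 8.33 to 11.7 CPM. Cd68 was called higher with both drugs in both genotypes. The other immune marker tested, under 1 CPM in every library, was called lower with torin1 in WT. Of 9 fibroblast markers tested, 3 were called higher and 3 lower with torin1 in WT, and 2 and 2 in DKO. Under DMSO 2 fibroblast markers were called higher and 3 lower in DKO than in WT. The myoblast markers summed to 3.03 to 3.66 CPM with DMSO and 5.65 to 7.09 CPM with torin1 in WT, where Des was called higher, and to at most 1.04 CPM in DKO. Endothelial, epithelial and adipocyte sums were at most 1.37, 2.72 and 6.63 CPM, and Kdr, Epcam, Cdh1 and Pparg were called higher with torin1 in WT. The part of these markers in the members' changes was not tested. Tfeb mRNA averaged 22.9 ± 1.74 CPM in WT and 2.25 ± 0.289 CPM in DKO cells under DMSO (SD, n = 4). Tfe3 mRNA did not fall in the DKO libraries (120.2 ± 1.17 CPM in WT and 123.6 ± 2.11 CPM in DKO), so the transcript level checks the Tfeb label only.

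Torin1 raised 6 of the 8 genes in WT cells and all 8 in DKO cells, and lowered none. The exceptions in WT were Igf1r, under the fold threshold given next, and Irs1, and scaled by library size alone both were called in WT too. With passage as a block both passed the adjusted p but not the fold threshold. To be called, a gene had to change by at least 1.2-fold and have a p under 0.05 in edgeR's quasi-likelihood test after Benjamini-Hochberg adjustment over all genes tested, and adjusted p-values below are from that test. Among all genes tested, 26.6% were called higher with torin1 in WT and 23% in DKO. The median log2 fold change of the 8 genes was 0.79 in WT and 0.73 in DKO, against 0.05 and 0.02 over all genes tested. The difference between the genotypes in the response to torin1 was called for 1 of the 8 genes, Igf1r, where the rise was larger in DKO. With passage as a block 2 were called, Igf1r and Irs1, both larger in DKO. Such a difference was called higher in DKO for 4.68% and lower in DKO for 6.33% of all genes tested. For no member was the torin1 response called smaller in DKO. Against the DMSO library of the same passage, torin1 gave a higher CPM in 4 of 4 passages for every member in both genotypes. The share of all genes that did so was not computed. MK-8722 raised Insr and Irs2 in WT, where 10.3% of all genes were called higher, and Igf1r in DKO, where 5.47% were. The plot of CPM by library shows the 8 genes side by side, and bulk values do not tell less mRNA per cell from fewer cells expressing a gene.

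**Figure D1:**
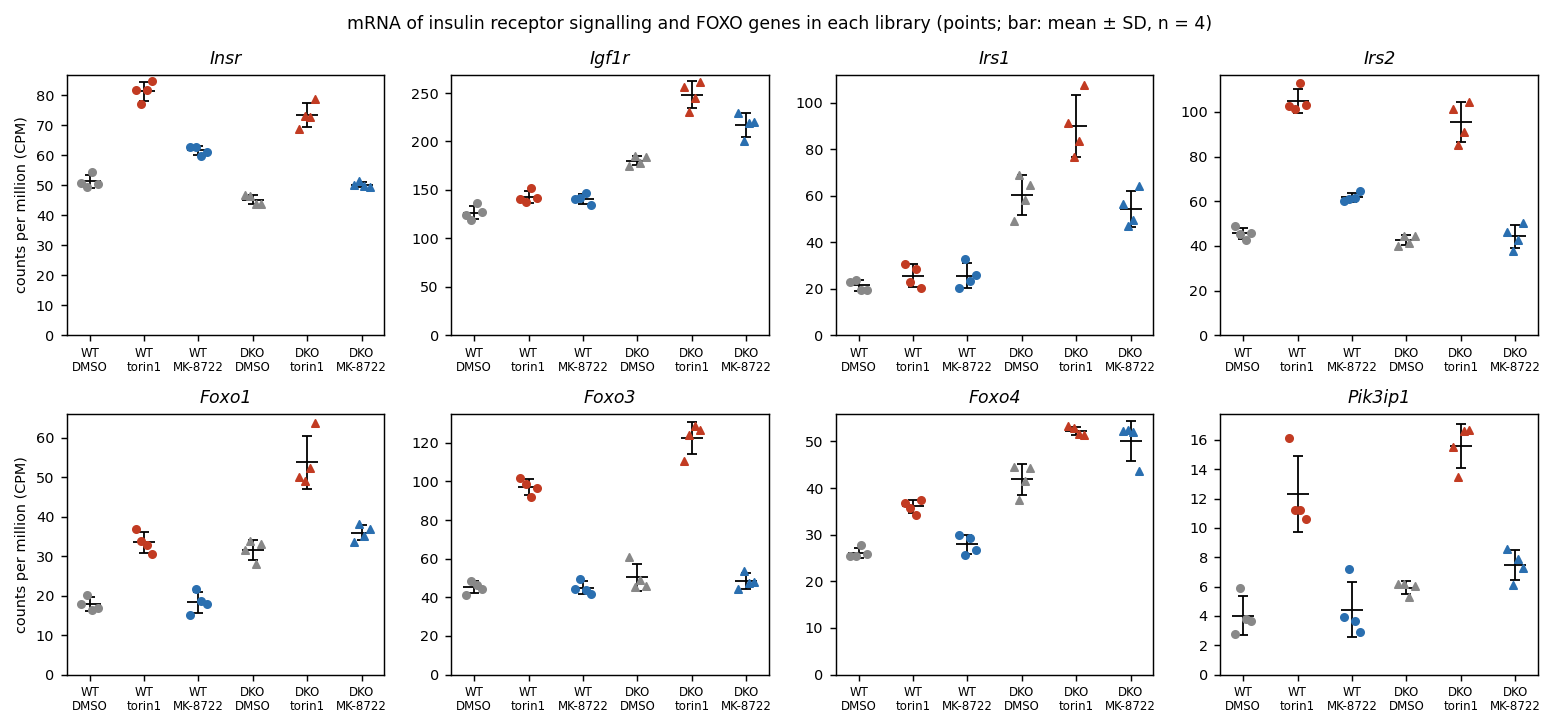
CPM of each of the 8 genes (vertical axis, from 0, a separate scale in each panel) in the 6 groups (horizontal axis). Points are libraries (circles WT, triangles DKO; grey DMSO, red torin1, blue MK-8722), and bars show the mean ± SD of n = 4. For Insr, Igf1r, Irs2, Foxo1, Foxo3, Foxo4 and Pik3ip1 every torin1 library lies above every DMSO library of its genotype, narrowly so for Igf1r in WT. For Irs1 this holds in DKO only. For what share of all genes it holds was not computed.

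Insr, the insulin receptor, lies on the minus strand of chromosome 8 at 3122061-3279617 (GRCm38). It was at 50.8, 49.4, 54.3 and 50.5 CPM in the WT DMSO libraries (replicates 1 to 4) and at 81.7, 77.1, 81.7 and 84.8 CPM with torin1. In DKO cells it was at 46.6, 46.4, 43.8 and 43.8 CPM with DMSO and at 68.7, 73.1, 72.9 and 78.6 CPM with torin1. The torin1 libraries lay above the DMSO libraries in both genotypes without overlap. The log2 fold change was 0.67 ± 0.04 in WT (SE, adjusted p = 3.20e-12) and 0.70 ± 0.04 in DKO (adjusted p = 2.08e-12). The response in DKO minus that in WT was 0.03 on the log2 scale (95% interval -0.09 to 0.15, adjusted p = 0.771), so that the interval leaves room for only a small difference in either direction. With MK-8722 Insr was at 62.9, 62.7, 59.6 and 61.0 CPM in WT and at 50.2, 51.3, 49.7 and 49.3 CPM in DKO. Every one of these libraries was above the DMSO libraries of its genotype. The WT rise (1.201-fold, log2 0.26 ± 0.04, adjusted p = 2.45e-05) sat at the fold threshold and was called in 10 of 22 alternative analyses, while the adjusted p was at most 0.0451 in all 22. The DKO rise of 1.11-fold (adjusted p = 0.0109) was under the fold threshold.

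Igf1r, the receptor for insulin-like growth factor 1 (plus strand of chromosome 7 at 67952827-68233668), was the one gene of the 8 whose torin1 response was called different between the genotypes without regard to passage, and with passage as a block it was called beside Irs1. In WT it was at 124, 119, 136 and 127 CPM with DMSO and at 140.2, 138, 152 and 142 CPM with torin1. In DKO it was at 175, 185, 178 and 184 CPM with DMSO and at 256, 230.1, 245 and 262 CPM with torin1. The groups did not overlap in either genotype, yet the gap was wider in DKO. The log2 fold change was 0.17 ± 0.05 in WT, which passed the adjusted p (0.00340) but not the fold threshold, and 0.46 ± 0.05 in DKO (adjusted p = 2.72e-08). The difference of 0.29 (95% interval 0.14 to 0.43) had an adjusted p of 0.00597 in edgeR's quasi-likelihood test. Without WT DMSO replicate 3, the highest of its group, the difference was 0.26 and missed the fold threshold. With MK-8722 the gene was at 140.3, 142, 147 and 135 CPM in WT and at 229.7, 200.3, 218.8 and 221 CPM in DKO. The MK-8722 rise was called in DKO alone (log2 0.27 ± 0.05, adjusted p = 4.04e-04, against 0.15 ± 0.05 in WT), but the difference between the genotypes was not (0.11, 95% interval -0.03 to 0.26, adjusted p = 0.431).

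Irs1 and Irs2 encode the main adaptors that couple both receptors to PI3-kinase. Irs1 lies on the minus strand of chromosome 1 at 82233101-82291416 and Irs2 on the minus strand of chromosome 8 at 10984681-11008458. Their promoters are shown because they were the only ones among the 6 members with a RefSeq entry (Igf1r, Irs1, Irs2, Foxo1, Foxo3 and Pik3ip1, GRCm38.p6; none for Insr or Foxo4) that held any of the motifs searched. The search covered 250 bases before and 50 bases after the start, on both strands, for CACGTG (the E-box core), TCACGTGA (a CLEAR element, which contains that core), GTAAACA (a FOXO site) and CAAAACA (an insulin response element bound by FOXO factors, read as TGTTTTG on the other strand). Capitals mark the matches.
Irs2 promoter (chr8:11008880-11009179, minus strand): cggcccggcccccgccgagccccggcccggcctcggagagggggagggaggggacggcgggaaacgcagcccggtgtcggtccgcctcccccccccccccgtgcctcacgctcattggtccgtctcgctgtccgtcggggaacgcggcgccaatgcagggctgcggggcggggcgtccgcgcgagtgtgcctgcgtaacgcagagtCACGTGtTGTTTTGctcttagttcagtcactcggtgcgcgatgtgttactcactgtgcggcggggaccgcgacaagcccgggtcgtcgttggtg
Irs1 promoter (chr1:82291390-82291689, minus strand): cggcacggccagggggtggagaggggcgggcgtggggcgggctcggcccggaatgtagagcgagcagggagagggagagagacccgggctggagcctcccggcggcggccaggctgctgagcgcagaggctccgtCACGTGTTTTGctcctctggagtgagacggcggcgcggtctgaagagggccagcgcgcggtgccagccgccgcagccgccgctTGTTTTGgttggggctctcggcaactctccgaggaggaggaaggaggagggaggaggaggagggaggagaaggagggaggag
In Irs2 the E-box core began 44 bases before the start and TGTTTTG 37 bases before it, 1 base after the E-box ended. In Irs1 the E-box core began 115 bases before the start and TGTTTTG 111 bases before it, so that the last letters of the first were the first letters of the second, and a further TGTTTTG stood 32 bases before the start. Of 32851 RefSeq promoters of this length, 7.15% held CACGTG, 6.28% held CAAAACA and 0.408% held both, while 0.974% held TCACGTGA and 3.65% held GTAAACA. The RefSeq start lay 23 bases from the annotated GENCODE start of Irs1 and 471 bases from that of Irs2. These are letter matches, and no binding was measured.

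Irs2 was at 48.7, 45.4, 42.5 and 46.0 CPM with DMSO and at 103, 101, 113 and 103 CPM with torin1 in WT cells. In DKO cells it was at 40.0, 44.4, 41.2 and 44.3 CPM with DMSO and at 101, 85.2, 90.8 and 105 CPM with torin1. The lowest torin1 library was thus well above the highest DMSO library in each genotype. The rise was 2.30-fold in WT (log2 1.201 ± 0.07, adjusted p = 2.66e-12) and 2.25-fold in DKO (log2 1.17 ± 0.07, adjusted p = 5.46e-12). The torin1 response in DKO minus that in WT was -0.03 (95% interval -0.24 to 0.18, adjusted p = 0.881) and was not called. The response to MK-8722 did differ. WT libraries rose to 60.0, 61.0, 61.6 and 64.6 CPM, all above WT DMSO, whereas DKO libraries were at 46.1, 37.9, 42.6 and 50.3 CPM, on both sides of the DKO DMSO values. The log2 fold change was 0.44 ± 0.07 in WT (adjusted p = 5.77e-05) and 0.06 ± 0.07 in DKO (adjusted p = 0.636). The difference of -0.38 (95% interval -0.59 to -0.17, adjusted p = 0.0237) was called, as a lower response in DKO was for 4.08% of all genes tested. The difference kept its direction in all 30 alternatives (-0.44 to -0.31) and its call in 24. The call was lost when WT DMSO replicate 3, WT MK-8722 replicate 4, DKO DMSO replicate 2 or 4, or DKO MK-8722 replicate 3 was left out, and without the passage 11 WT libraries (-0.37, adjusted p = 0.0706). With passage as a block it was -0.38 (adjusted p = 1.05e-05). DKO MK-8722 replicate 3, the library with the low RNA integrity number, was at 42.6 CPM, inside the range of its group.

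Irs1 differed from Irs2 in level between the genotypes and varied more between libraries. In WT it was at 22.9, 23.7, 19.4 and 19.6 CPM with DMSO and at 30.8, 22.8, 28.6 and 20.2 CPM with torin1. In DKO it was at 49.3, 69.1, 58.2 and 64.6 CPM with DMSO and at 91.4, 76.9, 83.8 and 108 CPM with torin1. The WT groups overlapped and the DKO groups did not. The log2 fold change was 0.26 ± 0.15 in WT (adjusted p = 0.152) and 0.58 ± 0.15 in DKO (adjusted p = 0.00157). With passage as a block the WT value was 0.25 ± 0.05 (adjusted p = 2.27e-04), just under the fold threshold. With MK-8722 the libraries were at 20.5, 32.9, 23.3 and 25.8 CPM in WT and at 56.7, 46.9, 49.6 and 64.1 CPM in DKO. Both overlapped their DMSO groups, and neither log2 fold change was called (0.26 ± 0.15 in WT, -0.15 ± 0.15 in DKO). With passage as a block these were 0.25 ± 0.05 (adjusted p = 5.67e-04) and -0.15 ± 0.05 (adjusted p = 0.0130), both under the fold threshold. Ratios within a passage varied less. Against the DMSO library of the same passage, torin1 gave ratios of 1.25, 1.04, 1.16 and 1.30 in WT (passages 7, 8, 9 and 11) and of 1.56, 1.41, 1.44 and 1.56 in DKO (passages 8, 9, 10 and 11). MK-8722 gave 1.13, 1.05, 1.19 and 1.39 in WT and 0.927, 0.877, 0.852 and 0.952 in DKO. Every WT ratio was above 1, whereas every DKO ratio with MK-8722 was below it. The difference in response between the genotypes was not called without regard to passage (torin1 0.32, 95% interval -0.11 to 0.76, adjusted p = 0.351, and MK-8722 -0.41, 95% interval -0.84 to 0.03, adjusted p = 0.342). With passage as a block it was called in both cases, as higher in DKO with torin1 (0.32, adjusted p = 0.00127) and lower in DKO with MK-8722 (-0.40, adjusted p = 2.90e-04). The plot of same-passage ratios sets Irs2 and Irs1 beside each other.

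**Figure D2:**
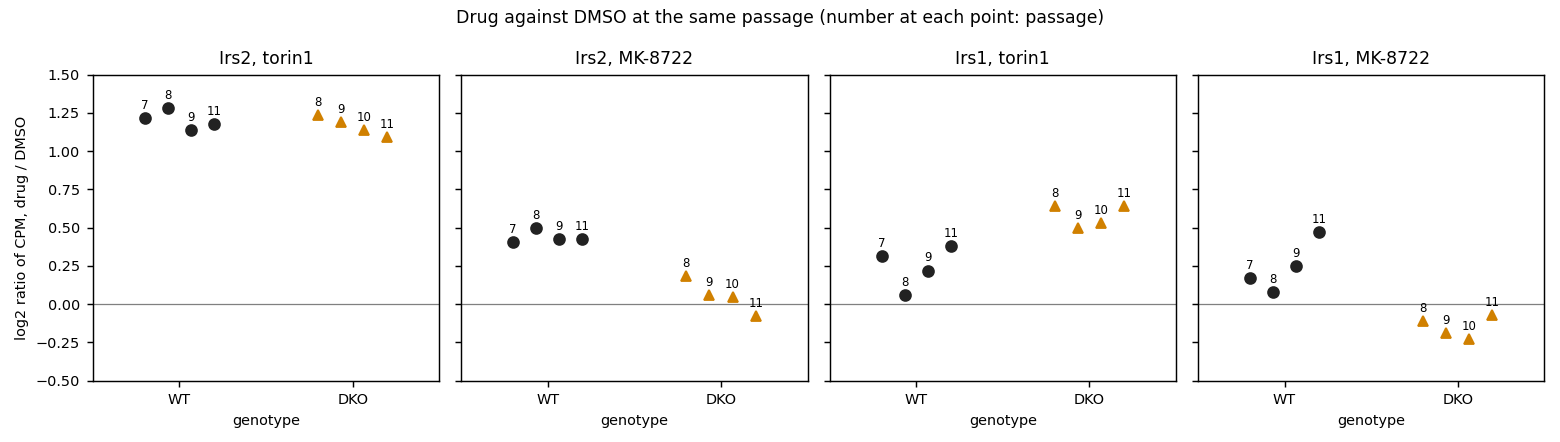
Log2 ratio of CPM, drug over the DMSO library of the same passage (vertical axis), for Irs2 and Irs1 in WT and DKO cells (horizontal axis); each point is 1 passage, with its number above it. Irs2 ratios with torin1 overlap between the genotypes, while those with MK-8722 are higher in WT, and Irs1 ratios with MK-8722 lie above 0 in WT and below 0 in DKO.

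The FOXO factors all rose with torin1 in both genotypes. Foxo3 (minus strand of chromosome 10 at 42181841-42276755), a factor tied to stress resistance and autophagy genes, moved most. It was at 41.3, 48.7, 46.6 and 44.4 CPM with DMSO and at 101.6, 98.4, 92.0 and 96.6 CPM with torin1 in WT. In DKO it was at 60.8, 45.4, 49.1 and 46.0 CPM with DMSO and at 110.4, 124, 128 and 126 CPM with torin1. The torin1 libraries stood far above the DMSO libraries in both cases. The rise was 2.15-fold in WT (log2 1.10 ± 0.08, adjusted p = 7.03e-11) and 2.43-fold in DKO (log2 1.28 ± 0.08, adjusted p = 7.99e-12). The difference of 0.18 (95% interval -0.06 to 0.41, adjusted p = 0.340) was not called, and only without DKO DMSO replicate 1, the highest of its group, did it pass (0.29, adjusted p = 0.0461). With MK-8722 Foxo3 stayed within 42.0 to 49.7 CPM in WT and 44.0 to 53.8 CPM in DKO, overlapping DMSO (log2 -0.01 ± 0.08 and -0.06 ± 0.08).

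Foxo1, the FOXO factor best known for control of gluconeogenic genes (plus strand of chromosome 3 at 52268336-52353221), was at 17.9, 20.3, 16.3 and 16.97 CPM with DMSO and at 37.0, 33.8, 32.8 and 30.6 CPM with torin1 in WT. In DKO it was at 31.6, 33.8, 28.0 and 33.0 CPM with DMSO and at 50.1, 49.0, 52.3 and 63.6 CPM with torin1. The DKO libraries under DMSO thus overlapped the WT libraries under torin1, and torin1 raised Foxo1 further in DKO. The log2 fold change was 0.91 ± 0.10 in WT (adjusted p = 3.14e-08) and 0.77 ± 0.09 in DKO (adjusted p = 2.95e-07), with a difference of -0.14 (95% interval -0.42 to 0.14, adjusted p = 0.556). Foxo4 (plus strand of chromosome X at 101254528-101260873) rose least of the FOXO factors. It was at 25.5, 25.4, 27.8 and 25.8 CPM with DMSO and at 36.8, 35.8, 34.3 and 37.4 CPM with torin1 in WT, and at 44.4, 37.4, 41.5 and 44.3 CPM and 53.2, 52.8, 51.7 and 51.3 CPM in DKO. The log2 fold change was 0.46 ± 0.06 in WT (adjusted p = 9.11e-07) and 0.32 ± 0.06 in DKO (adjusted p = 1.09e-04). The DKO call was lost without DKO DMSO replicate 2, where the value of 0.26 was just under the fold threshold. The difference was -0.15 (95% interval -0.33 to 0.03, adjusted p = 0.293). With MK-8722 neither gene was called in either genotype. Foxo4 in DKO came closest, at 52.3, 52.5, 52.0 and 43.6 CPM with a 1.195-fold rise (log2 0.26 ± 0.06, adjusted p = 0.00435) that fell just under the fold threshold and was called in 7 of 22 alternatives.

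Pik3ip1 encodes a membrane protein that binds the catalytic subunit of PI3-kinase and restrains it, and is a known FOXO target. It lies on the plus strand of chromosome 11 at 3330401-3342971. It had the largest torin1 fold change of the 8 genes. In WT it was at 2.77, 5.87, 3.77 and 3.65 CPM with DMSO and at 16.2, 11.2, 11.2 and 10.6 CPM with torin1. In DKO it was at 6.20, 6.19, 5.26 and 6.06 CPM with DMSO and at 15.5, 13.5, 16.6 and 16.7 CPM with torin1. The groups did not overlap in either genotype. The rise was 3.06-fold in WT (log2 1.61 ± 0.22, adjusted p = 9.69e-07) and 2.62-fold in DKO (log2 1.39 ± 0.21, adjusted p = 5.68e-06). The difference of -0.22 had a wide interval (-0.84 to 0.40, adjusted p = 0.697), so that a moderate difference in either direction would not have been detectable in this fit. With passage as a block the difference was -0.25 with a smaller SE of 0.15 and was not called (adjusted p = 0.232). With MK-8722 it was at 3.94, 7.17, 3.68 and 2.92 CPM in WT and at 8.55, 6.14, 7.91 and 7.28 CPM in DKO, and neither change was called (log2 0.14 ± 0.23 and 0.34 ± 0.22), although the DKO change was with passage as a block (0.33).

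**Figure D3:**
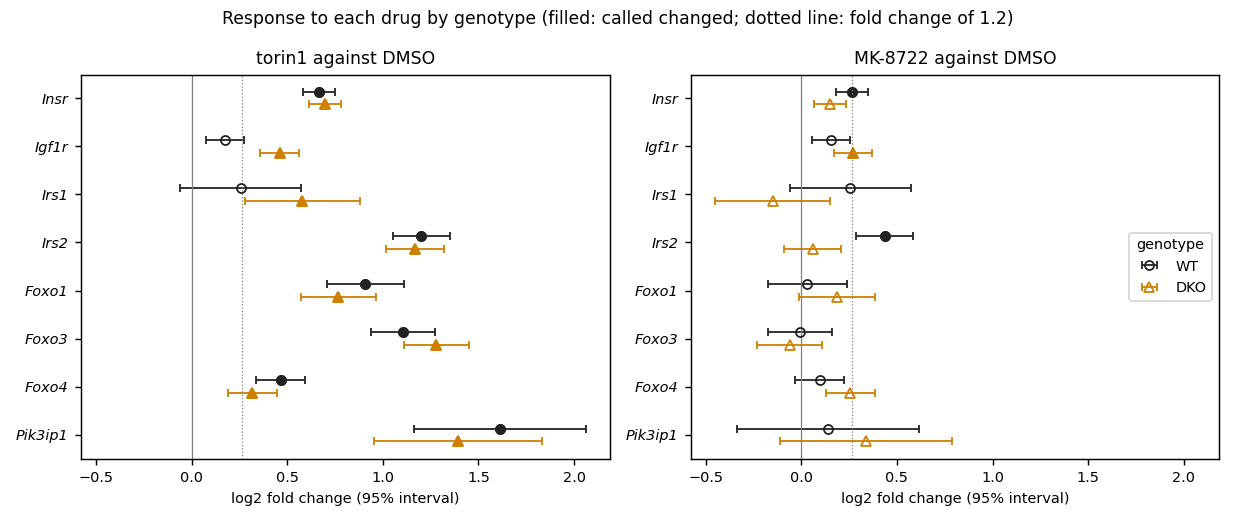
Log2 fold change of each gene against DMSO (horizontal axis) with its 95% interval, for torin1 (left) and MK-8722 (right), in WT (black circles) and DKO (orange triangles) cells. Filled symbols were called changed, and the dotted line marks the fold threshold of 1.2. All torin1 values lie above 0, and the WT and DKO intervals separate for Igf1r with torin1 and for Irs2 with MK-8722.

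Set against each other directly, torin1 gave more mRNA than MK-8722 for 6 of the 8 genes in WT and 6 in DKO, where 24.9% and 21.1% of all genes were called higher. Foxo3 was 2.16-fold higher with torin1 than with MK-8722 in WT and 2.54-fold higher in DKO, and Irs2 was 1.70-fold and 2.16-fold higher. In WT the exceptions were Igf1r (log2 0.02, 95% interval -0.08 to 0.12) and Irs1 (log2 0.00, 95% interval -0.31 to 0.31). In DKO they were Igf1r (log2 0.19, 95% interval 0.09 to 0.29) and Foxo4 (log2 0.06, 95% interval -0.07 to 0.19), whose MK-8722 level was close to its torin1 level. Doses and times are not in the labels, so the contrast is between the treatments as given.

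The DKO cells differed from WT cells in several members before any drug was added. Under DMSO 5 of the 8 genes were higher in DKO and none lower, where 23.5% of all genes tested were called higher and 24.6% lower. Irs1 was 2.81-fold higher (log2 1.49 ± 0.15, adjusted p = 1.21e-08), Foxo1 1.77-fold, Foxo4 1.60-fold, Pik3ip1 1.47-fold and Igf1r 1.42-fold. The Pik3ip1 libraries of the genotypes overlapped and its call held in 13 of 22 alternatives. Irs2 (log2 -0.10 ± 0.07) and Foxo3 (log2 0.16 ± 0.08) were not called. Insr was lower in every DKO library than in any WT library, at 0.881 of the WT level (adjusted p = 4.57e-04), which did not reach the fold threshold. Under torin1 Irs1, Igf1r, Foxo1, Foxo4 and Foxo3 were called higher in DKO, the first by 3.51-fold, where 24% of all genes were. Under MK-8722 Irs1, Foxo1, Foxo4, Pik3ip1 and Igf1r were called higher, where 23.3% of all genes were, and Insr (log2 -0.30 ± 0.04, adjusted p = 1.07e-06) and Irs2 (log2 -0.48 ± 0.07, adjusted p = 3.55e-06) were called lower, where 25.4% were. The members thus did not move as 1 block between the genotypes, since the adaptor Irs1 was higher in DKO under every treatment and the adaptor Irs2 under none.

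Levels of different genes were compared in TPM, transcript abundances per length scaled to a common total. Under DMSO in WT, Igf1r led (20.7 ± 2.33 TPM, SD, n = 4), followed by Foxo4 (15.3 ± 0.18), Insr (12.8 ± 0.59), Foxo3 (12.8 ± 0.67), Irs2 (11.0 ± 0.58), Pik3ip1 (4.64 ± 1.63), Irs1 (3.54 ± 0.36) and Foxo1 (3.12 ± 0.30). Insr and Foxo3 did not differ beyond their spread, nor did Pik3ip1, Irs1 and Foxo1. With torin1 in WT the order changed, and Foxo3 (29.1 ± 1.97 TPM), Irs2 (26.9 ± 1.42) and Igf1r (26.6 ± 1.90) were close together at the top. The adaptors stood far apart in WT, where Irs2 was at 11.0 TPM and Irs1 at 3.54 TPM under DMSO. In DKO they were level under DMSO, at 9.99 ± 0.50 TPM and 9.73 ± 1.36 TPM. TPM of these genes rests in part on short transcripts: the leading Insr transcript held 93.3% of the Insr counts but 60.6% of its TPM in WT DMSO libraries, and that of Pik3ip1 held 61.0% of the counts and 32.7% of the TPM. The share of counts on the leading transcript moved little with torin1, from 93.3% to 92.7% for Insr and from 97.4% to 96.4% for Igf1r in WT.

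Among all genes tested, the torin1 response in WT placed Pik3ip1 at percentile 97.9, Irs2 at 95, Foxo3 at 93.9, Foxo1 at 90.7, Insr at 84.7 and Foxo4 at 77.1. Irs1 was at percentile 65.8 and Igf1r at 60. The genes whose 6 group means, centred on their own average, lay nearest to a member were sought among 10658 genes of at least 2 log2 CPM. For Insr they were Eif4a2, a translation initiation helicase, and Xpc, a DNA damage sensor, at a root mean square difference of 0.04 and 0.05 on the log2 scale. For Foxo3 they were Porcn and Dhx40 (0.09 and 0.10), and for Pik3ip1 Ppp1r26 and Ssc4d (0.13 and 0.16). These are likenesses over 6 group means that share their libraries, with no test.

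The other lists of the pathway did not rise as the members did. Members and lists were chosen with earlier results of these data known, so this contrast is a description. Of 16 receptor partners and brakes, 3 rose and 7 fell with torin1 in WT, and 3 rose and 5 fell in DKO. Among all genes tested, 26.6% were called higher and 20.5% lower in WT, and 23% and 20.2% in DKO. The adaptors Gab1 and Gab2 rose (log2 0.45 and 0.71 in WT), as did Grb14, an inhibitor of the insulin receptor, from 0.83 CPM to 2.52 CPM. The phosphatase Ptpn1, which dephosphorylates the receptor, fell (log2 -0.88 in WT and -0.65 in DKO), as did the phosphatase Ptpn11 (-0.65 and -0.57). Trib3, a pseudokinase that binds AKT and is induced by stress, fell most (log2 -3.94 ± 0.29 in WT, -4.12 ± 0.29 in DKO). Gab2 was also the 1 gene of this list to rise with MK-8722 in WT (log2 0.68), and that response was smaller in DKO (difference -0.39, adjusted p = 0.00652), the same direction as for Irs2. Of 19 genes of the PI3K-AKT arm, 2 rose and 6 fell with torin1 in WT and 6 rose and 6 fell in DKO. The same shares of all genes stand beside these counts. The regulatory subunits Pik3r1 and Pik3r3 and the kinase Akt1 fell (log2 -0.68, -1.21 and -0.78 in WT), while the catalytic subunit Pik3cd and the phosphatase Inpp5k, which removes a phosphate from the PI3-kinase product, rose (0.30 and 0.78).

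FOXO targets moved in both directions. Of 20 tested targets of 25 listed, 9 rose and 7 fell with torin1 in WT and 9 rose and 9 fell in DKO. Among all genes, 26.6% were called higher and 20.5% lower in WT, and 23% and 20.2% in DKO. The median log2 fold change was 0.02 and 0.16 against 0.05 and 0.02 over all genes. The list mixes targets that FOXO factors activate and repress, so its median does not give the direction of FOXO activity. Fbxo32, a muscle ubiquitin ligase, rose from 7.54 CPM to 30.8 CPM in WT and from 7.34 CPM to 39.1 CPM in DKO. Txnip, an inhibitor of glucose uptake, rose (log2 2.35 in WT and 1.67 in DKO), as did Ccng2, a cyclin of non-dividing cells (1.25 and 1.96), whose response was larger in DKO (difference 0.70, adjusted p = 0.0185). The cyclins Ccnd2 and Ccnd1, which FOXO factors are known to repress, fell (log2 -2.08 and -1.10 in WT), but so did Bcl6, which they are known to activate (-1.11). With MK-8722 in WT 2 targets rose and 8 fell, where 5.87% of all genes were called lower, and in DKO 2 rose and 2 fell, where 3.21% were. Txnip fell with MK-8722 (log2 -1.44 in WT, -0.83 in DKO), opposite to its change with torin1. Of 10 proteins that modify FOXO factors, 1 rose and 7 fell with torin1 in each genotype, where 20.5% (WT) and 20.2% (DKO) of all genes were called lower. The deacetylase Sirt1 rose (log2 0.62 and 0.44), and the ubiquitin ligase subunit Skp2 and the 14-3-3 proteins Ywhaz and Ywhab fell.

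Other receptor tyrosine kinases gave a comparison for the receptors. Of 17 tested of 20 listed, 4 rose and 1 fell with torin1 in WT, and 8 rose and 2 fell in DKO, where 26.6% and 23% of all genes were called higher. The WT count of 4 is thus close to the share over all genes, while the DKO count of 8 is above it. Pdgfra rose from 5.09 CPM to 21.2 CPM in WT and from 25.2 CPM to 124 CPM in DKO, Fgfr1 rose (log2 0.63 and 0.73) and Ddr2 fell (-0.46 and -0.54), while Kdr was called but stayed at or below 1.15 CPM in every library. Fgfr1 also rose with MK-8722 in WT (log2 0.53), while its value of 0.15 in DKO was not called (difference -0.38, adjusted p = 0.00133). Among ligands and binding proteins, 6 of 12 were tested, and Ins1 and Ins2 were not among them. Igf2r, the clearing receptor for insulin-like growth factor 2 and a carrier of lysosomal enzymes, rose with torin1 (log2 0.79 in WT and 0.45 in DKO) and with MK-8722 in WT (0.83), and its value of 0.20 with MK-8722 in DKO was not called. Both responses were smaller in DKO (differences -0.33, adjusted p = 0.0474, and -0.62, adjusted p = 7.29e-04), which for torin1 is the opposite of Igf1r. Igfbp6 fell with torin1 in WT (log2 -0.60, adjusted p = 0.0110) and was at 0.21 in DKO. Of the close relatives of the members, Insrr, Irs3 and Irs4 were not tested, being too low. Foxo6 rose with torin1 in DKO (log2 0.53, against 0.18 in WT, a difference that was not called). With MK-8722 it fell in WT (-0.58) and was not called in DKO (0.29), and that difference was called (0.86, higher in DKO). Under DMSO and torin1 Foxo6 was called lower in DKO than in WT (log2 -1.14 and -0.80), and under MK-8722 it was not called (-0.28).

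**Figure D4:**
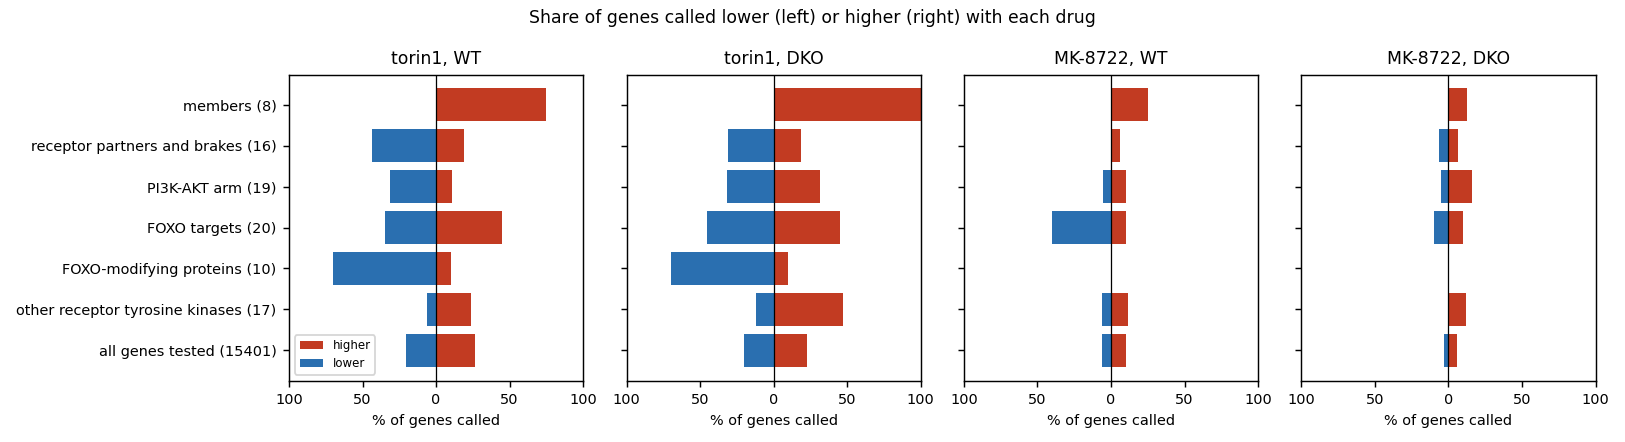
Percent of genes called higher (red, to the right) or lower (blue, to the left) than DMSO for the 8 members, 5 lists of the pathway and all genes tested (number of genes in brackets), in 4 panels for each drug and genotype. With torin1 the members were called in the upward direction only, in both genotypes, whereas each of the 5 lists plotted holds genes called in both directions.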

How the data were processed

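Poly(A) RNA of 24 MEF libraries was sequenced in pairs of 52 bases by the authors. Per the labels, STAR and Salmon were used against GRCm38. The authors deposited Salmon estimated counts per gene, merged over libraries and not normalized, and per-library Salmon tables that give estimated counts and TPM per transcript. Estimated counts were rounded to whole numbers. The effective lengths in the deposited tables were used only for an offset tried as an alternative.

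Genes with enough counts were kept with filterByExpr (minimum count 10), libraries were scaled by TMM (factors 0.95 to 1.08), and edgeR 4.0.16 in R 4.3.3 fitted 1 mean per group over all 24 libraries by quasi-likelihood, with trended dispersion and 18 residual degrees of freedom. P-values were adjusted by Benjamini-Hochberg over all 15401 genes. CPM values use the TMM-scaled totals. The biological coefficient of variation was 10.7%. The 11 comparisons covered each drug against DMSO, the difference of those responses between genotypes, DKO against WT under each treatment, and torin1 against MK-8722. TPM of a gene is the sum over its transcripts. Transcript names, coordinates and gene types came from GENCODE M21 and promoters from RefSeq. Replicate pairs differed by more than counting noise (chi-square per degree of freedom 3.97 to 40.5 over 36 pairs). Simulated data, with 200 genes changed, were run through the fit for torin1 against DMSO in WT only. That run did not cover the differences between genotypes, and its outcome is not given here.

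The members and gene lists were chosen with earlier results of these data known. All 8 members are named, as are, from each list, up to 3 called genes with the largest rise and 3 with the largest fall with torin1 in WT, and the 2 genes most like each member. A few further members of short counts (Foxo6, Insrr, Irs3, Irs4, Ins1, Ins2) are named after their values were seen.

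Replicate numbers in the labels do not mark a shared passage: same-numbered libraries of other groups correlated between -0.41 and 0.66 in their deviations from the group means, with 13 of 60 pairs above 0.1. Passage, also in the labels, was therefore tried as a block (17 of 24 same-passage pairs of a genotype above 0.1). Other alternatives were DESeq2 1.42.0, limma 3.58.1 (voom), other filters and scalings, the false discovery rate alone, and each library or passage left out. The genes nearest to Irs2 by group means are not reported here.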

Additional observations from a re-analysis of the deposited data

Results flagged for a closer look

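In 4 of 48 sets of 4 libraries (8 genes in 6 groups) 1 library stood apart from the others by Dixon's criterion at the 95% level, which chance gives in about 1 of 20 sets. They were Foxo4 in WT DMSO replicate 3 (27.8 CPM), Foxo4 in DKO MK-8722 replicate 4 (43.6 CPM), Pik3ip1 in WT torin1 replicate 1 (16.2 CPM) and Pik3ip1 in DKO DMSO replicate 3 (5.26 CPM).

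The response of Igf1r to torin1 differed between the genotypes by 0.29 on the log2 scale (DKO minus WT), higher against the same-passage DMSO library in 4 of 4 passages of each genotype. The response of Irs2 to MK-8722 differed by -0.38, higher than DMSO in 4 of 4 WT passages and 3 of 4 DKO passages.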

How the results depend on the processing

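The torin1 calls of Insr, Irs2, Foxo1, Foxo3 and Pik3ip1 held in both genotypes in all 22 alternatives of each comparison, as did those of Foxo4 in WT and of Igf1r and Irs1 in DKO. With the replicate number as a block, each of the 22 counts of called members and 88 member values kept its call (Irs2 response to MK-8722 -0.38, Igf1r response to torin1 0.28). For torin1 higher in WT (6 genes), the false discovery rate alone and the length offset gave 7, adding Igf1r, library size alone gave 8, adding Igf1r and Irs1, and the other 19 alternatives 6. Other counts of called members moved as follows. For a larger torin1 response in DKO (1 gene), library size alone gave 0 and the passage block 2, and leaving out single libraries 0 to 2. For MK-8722 higher in WT (2), the unfiltered table, DESeq2 size factors, the DESeq2 test, the length offset and leaving out the WT passage 11 or the DKO passage 8 libraries each gave 1, and single libraries 1 to 2. For MK-8722 higher in DKO (1), the false discovery rate alone gave 3, no filter 0, library size alone, the length offset, the passage block and leaving out either passage 2, and single libraries 0 to 2. For a smaller MK-8722 response in DKO (1), the passage block gave 2, leaving out WT passage 11 gave 0, and single libraries 0 to 1. For DKO lower than WT (0), the false discovery rate alone gave 1 under DMSO and 1 under torin1, and library size alone 2 under torin1. The causes were not tested.

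Changes of sign concerned values near 0. The Insr torin1 response difference was -0.0232 with library size alone and -0.0283 with the length offset, and that of Irs2 was 0.0061 without WT passage 11 (single libraries -0.0691 to 0.0441). Foxo3 with MK-8722 in WT was 0.005 with library size alone and 0.0028 with only the groups compared (single libraries -0.0682 to 0.0284). Torin1 against MK-8722 in WT was -0.0088 for Igf1r without a filter (single libraries -0.032 to 0.0389), and for Irs1 -0.0289 without a filter, -0.008 and -0.0085 by DESeq2 size factors and test, -0.0002 with the length offset, -0.0004 with the passage block, -0.0195 with only the groups compared and -0.0015 without DKO passage 8 (single libraries -0.1224 to 0.1349). Leaving out single libraries also spanned 0 for MK-8722 in WT (Foxo1 -0.0669 to 0.102, Pik3ip1 -0.2029 to 0.3905), MK-8722 in DKO (Irs2 -0.0106 to 0.1259, Foxo3 -0.1173 to 0.0422) and the MK-8722 response difference (Foxo3 -0.1098 to 0.0526, Pik3ip1 -0.0556 to 0.5452). Leading transcripts held less of TPM than of counts in WT DMSO (Insr 60.6%, Igf1r 79.4%, Foxo3 66.6%, Foxo4 76.0%, Pik3ip1 32.7%), and the next transcripts more (Foxo3 19.5%, Foxo4 11.6%, Pik3ip1 35.7%). Without TMM, the members' torin1 changes in WT moved by about 0.09 and DKO against WT under torin1 by about -0.13 on the log2 scale, and the share of calls that were higher went from 56.5% to 68.2% and from 46.3% to 31.9%. For torin1 against MK-8722 in WT it went from 55.4% to 66.3% and for the torin1 response difference from 42.5% to 26.5%. Pik3ip1, with the fewest counts, had the widest intervals.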

Other observations

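Libraries of 1 passage stood apart for several members, seen after the values were known. Each group holds 1 library per passage, so passage number cannot be told apart from other differences between those cultures. In WT the passage 11 library was the highest of its group under all 3 treatments for Irs1, Foxo1, Foxo3 and Pik3ip1. Pik3ip1 at passage 11 was at 1.73, 1.47 and 2.04 times the mean of the other passages with DMSO, torin1 and MK-8722, and Irs1 at 1.15, 1.29 and 1.42 times. Insr at passage 11 was at 0.953, 1.01 and 1.03 times. In DKO the passage 8 library was the highest under all 3 treatments for Irs1 and Irs2 and the lowest for Foxo4 (0.861, 0.976 and 0.834 times). The passage 11 library, the highest for Irs1 in WT, was the lowest for Irs1 in DKO (49.3, 76.9 and 46.9 CPM with DMSO, torin1 and MK-8722).

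Further nearest genes by group means were Mxra8 and Pnpla2 for Igf1r (root mean square difference 0.06 for both), Fhdc1 and Sema3c for Irs1 (0.12 for both), Ofd1 and Tap2 for Foxo1 (0.09 for both), and Gnpda2 and Apool for Foxo4.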
